A study of Mus musculus with 12 samples.

Results

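Hba-a1, Hba-a2, Hbb-bs and Hbb-bt, which encode the chains of adult mouse hemoglobin, and Alas2, the red-cell form of the enzyme that starts heme synthesis, were followed as blood RNA in preparations of striatal synaptosomes. These 5 genes were taken by symbol from a deposited table of 21492 genes, and all 5 reached the level needed for testing. The study compared mice with a Shank3 transgene (TG) with wild-type (WT) mice, all of them C57BL/6J males aged 70 days after birth, in RNA from the striatum. Each genotype was measured in RNA of the synaptosomal polysomes (polyribosomes, messengers carrying several ribosomes) and in synaptosomal input RNA. The 4 groups were thus TG polysome, TG input, WT polysome and WT input, with 3 libraries each, numbered 1 to 3 in every group. The labels do not give the promoter of the transgene, the blood content of the tissue, or whether a number stands for an animal. The p-values therefore reflect how far these libraries varied among themselves, and some of that variation may be technical.

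Hemoglobin of adult mice carries oxygen in red blood cells and is built from alpha chains, encoded by Hba-a1 and Hba-a2, and beta chains, encoded by Hbb-bs and Hbb-bt, each holding a heme. Alas2 joins glycine and succinyl-CoA in the mitochondria of red-cell precursors, while its relative Alas1 does so in other cells. Young red cells, the reticulocytes, have lost their nucleus but still hold globin messengers and ribosomes, so blood left in a brain sample adds globin RNA to it. Globin messengers have also been described in some neurons and glia of rodents. In bulk libraries such as these, the number of cells of a type and the amount of RNA per cell cannot be told apart.

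The alpha genes lie on chromosome 11 of GRCm38, with 3 exons each. Hba-a1 (ENSMUSG00000069919) spans 32283511 to 32284465 and Hba-a2 (ENSMUSG00000069917) spans 32296489 to 32297298, both on the plus strand. The beta genes lie on the minus strand of chromosome 7, also with 3 exons each. Hbb-bs (ENSMUSG00000052305) spans 103826534 to 103828096 and Hbb-bt (ENSMUSG00000073940) spans 103812524 to 103813996. Alas2 (ENSMUSG00000025270) spans 150547375 to 150570638 on the plus strand of chromosome X, with 11 exons. The copies within each globin pair are nearly the same sequence, which bears on how reads could be divided between them. Of the 31-base sequences in the exons, 75.5% for Hba-a1, 92.6% for Hba-a2, 54.4% for Hbb-bs and 59.4% for Hbb-bt also occur in another gene, against 0.0% for Alas2. The 429 coding bases of the alpha pair differ by 1 substitution, C381T from Hba-a1 to Hba-a2. The 444 coding bases of the beta pair differ by 1 substitution, C417T from Hbb-bs to Hbb-bt. Both pairs encode proteins of identical sequence, with 142 residues for alpha and 147 for beta. The 41 coding bases around each difference are shown because no other coding base separates the copies. Positions count from 1 at the A of the start codon, the alpha windows cover coding bases 361 to 401, the beta windows cover coding bases 397 to 437, and the capital marks the base that differs.
Hba-a1: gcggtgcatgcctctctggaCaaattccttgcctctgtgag
Hba-a2: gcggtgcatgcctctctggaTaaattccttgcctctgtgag
Hbb-bs: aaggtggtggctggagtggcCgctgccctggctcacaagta
Hbb-bt: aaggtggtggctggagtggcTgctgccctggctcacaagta
Values of a single copy are therefore uncertain, and the sums of the alpha pair, the beta pair and all 4 adult globins, which do not depend on the division of reads within a pair, are given beside them. The alpha copies also share 31-base sequences with a further gene, Hba-ps4, and the beta copies only with each other. Sums and ratios that include the alpha pair could thus still depend on reads divided with Hba-ps4.

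The 5 genes are known targets of red-cell transcription factors, so their start regions were searched for TATAA (the TATA box), CCAAT (a site of NF-Y), CACCC (a site of KLF1 and its relatives) and GATAA (a site of GATA factors), on both strands. The windows were RefSeq's, from 250 bases before to 50 bases after each start (GRCm38.p6). All 4 adult globin windows held all 4 motifs, against 1.51% of 32851 windows of the same length. TATAA alone was found in 24.9% of these windows, CCAAT in 37.4%, CACCC in 57.5% and GATAA in 25.4%. TATAA began 27, 30, 29 and 28 bases before the start of Hba-a1, Hba-a2, Hbb-bs and Hbb-bt, and 2.97% of all windows had one that began 35 to 25 bases before the start. The Alas2 window held TATAA together with GATAA as well as CACCC but did not hold CCAAT, and its TATAA began 207 bases before the start. The windows of Hba-a1 and Hba-a2 were identical at all 297 aligned bases, while those of Hbb-bs and Hbb-bt were identical at 219 of 293 (74.7%). The stretches that precede the first annotated exon are shown for Hba-a2 and Alas2, an adult globin and the heme enzyme, 5′ to 3′ on the plus strand with the motifs in capitals. The Hba-a2 stretch is chr11:32296242-32296488 and the Alas2 stretch is chrX:150547167-150547374, where TTATC is GATAA read on the other strand. A motif match describes these letters and is no measured binding site.
Hba-a2: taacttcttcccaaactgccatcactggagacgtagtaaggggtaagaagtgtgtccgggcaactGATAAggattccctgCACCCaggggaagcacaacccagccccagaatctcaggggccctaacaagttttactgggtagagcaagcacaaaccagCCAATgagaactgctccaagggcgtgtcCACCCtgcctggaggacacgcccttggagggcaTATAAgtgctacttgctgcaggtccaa
Alas2: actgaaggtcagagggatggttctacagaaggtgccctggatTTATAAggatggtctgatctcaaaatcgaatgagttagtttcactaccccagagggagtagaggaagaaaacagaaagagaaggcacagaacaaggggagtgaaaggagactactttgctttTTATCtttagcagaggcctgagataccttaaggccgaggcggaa

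Levels are given as signal, by which is meant an estimated read count per gene after normalization by the authors. It summed to 62.2 to 74.3 M in polysome libraries and 95.5 to 112.6 M in input libraries, where M stands for 1000000. Judged from the spacing of low values, 1 read was worth a signal of 0.610 to 0.842 in polysome and 1.27 to 1.81 in input libraries, so low genes such as Alas2 were counted less precisely in input. RNA of the mitochondrial genome took 24.6% to 36.5% of the signal in polysome and 43.1% to 49.9% in input libraries. Shank3, the targeted gene, was 2.1 to 4.2 times as high in TG as in WT libraries of the same number and fraction. Adult globin RNA took 56.4 to 169 ppm (signal per M of total signal) in polysome and 35.4 to 78.5 ppm in input libraries, or 88.8 to 240.5 ppm in polysome and 70.5 to 140.0 ppm in input libraries once the mitochondrial RNA was left out.

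Summed beta-globin signal exceeded summed alpha-globin signal in every library but library 3 of TG input and of WT input, and most of it was assigned to Hbb-bs, one of the adult beta chains. Hbb-bs had signals of 3183, 2801 and 6164 in TG polysome, 2356, 2326 and 3433 in TG input, 2266, 2349 and 5676 in WT polysome, and 2001, 2124 and 3055 in WT input libraries 1, 2 and 3. Library 3 was the highest of each group. Its partner Hbb-bt had signals of 467.3, 567.4 and 906.9 in TG polysome, 305.4, 283.8 and 261.5 in TG input, 400.4, 390.6 and 786.2 in WT polysome, and 188.4, 224.9 and 366.4 in WT input libraries. The polysome libraries of Hbb-bt did not overlap the input libraries in either genotype, and TG input was the group where library 3 was the lowest. The share of all genes without such overlap was not counted, and 25.0% of genes tested were higher in polysome in all 6 same-numbered pairs. Summed beta-globin signal came to 3650, 3368 and 7071 in TG polysome, 2661, 2610 and 3695 in TG input, 2666, 2740 and 6462 in WT polysome, and 2190, 2349 and 3422 in WT input libraries. The group means of this sum were 4696 ± 2061, 2989 ± 612, 3956 ± 2171 and 2654 ± 670 in the same order of groups (SD, n = 3 each).

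The alpha genes, which supply the partner chain of hemoglobin, were assigned similar signals. Hba-a2 had signals of 1225, 1084 and 2157 in TG polysome, 1099, 1146 and 2152 in TG input, 976.4, 848.4 and 2112 in WT polysome, and 944.0, 914.2 and 1861 in WT input libraries. Hba-a1 had signals of 784.1, 697.4 and 1675 in TG polysome, 775.6, 1037 and 2237 in TG input, 547.5, 612.7 and 1629 in WT polysome, and 716.4, 782.7 and 2060 in WT input libraries. Library 3 of every group stood above libraries 1 and 2 of all 4 groups for both alpha genes, so that the groups overlapped widely. Summed alpha-globin signal came to 2009, 1781 and 3832 in TG polysome, 1875, 2183 and 4389 in TG input, 1524, 1461 and 3742 in WT polysome, and 1660, 1697 and 3921 in WT input libraries. Its group means were 2541 ± 1124, 2816 ± 1371, 2242 ± 1299 and 2426 ± 1295 in that order (SD, n = 3 each).

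Alas2, the heme enzyme of red-cell precursors, was far lower. It had signals of 69.12, 76.06 and 175.3 in TG polysome, 77.74, 28.81 and 115.3 in TG input, 67.70, 48.94 and 133.4 in WT polysome, and 56.05, 49.00 and 89.63 in WT input libraries. Library 3 was again the highest of each group, and the 4 groups overlapped.

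**Figure D1:**
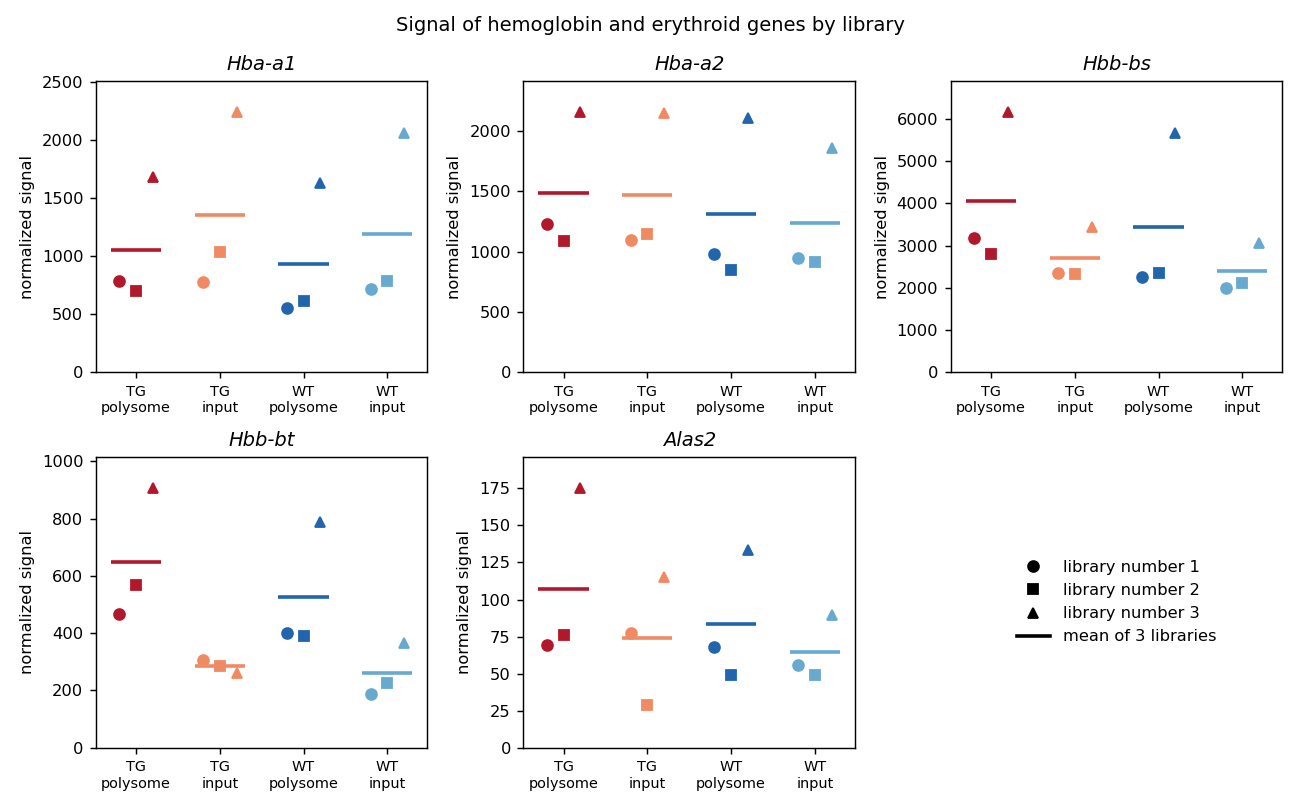
Signal of each of the 5 genes (y axis, normalized estimated count, a scale of its own per gene) in the 12 libraries, by group and library number, with group means as lines. Library 3 sits on top in all 4 groups for Hba-a1, Hba-a2, Hbb-bs and Alas2, and Hbb-bt polysome libraries lie above the input libraries of the same genotype.

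Per kilobase of exon, which allows levels of different genes to be set side by side, the order was Hbb-bs, Hba-a2, Hba-a1, Hbb-bt and Alas2 in each of the 4 groups. The mean level of Hbb-bs was 5272 per kilobase in TG polysome, 3522 in TG input, 4466 in WT polysome, and it was 3117 in WT input libraries, above 97.2% to 98.4% of the 21465 genes with an annotated length. Hba-a2 had 2232, 2197, 1967 and 1859 per kilobase in these groups, and Hba-a1 had 1296, 1663, 1145 and 1461. The libraries of these neighbours in the order overlapped in all 4 groups, with 1625 to 3234 per kilobase for Hba-a2 and 858.9 to 2063 for Hba-a1 in TG polysome. Hbb-bs did not overlap Hba-a2 in TG polysome (3647 to 8026 for Hbb-bs) and overlapped it in the other 3 groups. Hbb-bt had 920.6, 403.4, 747.9 and 369.7 per kilobase, above 88.1%, 76.4%, 85.8% and 75.0% of genes, and it overlapped Hba-a1 in the polysome groups but lay wholly below it in the input groups. Alas2 had 44.5, 30.8, 34.7 and 27.0 per kilobase, above 39.8% to 44.7% of genes, wholly below Hbb-bt in each group and below the level of the median gene.

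Except for Hbb-bt, the widest spread of the 5 genes lay between library numbers rather than between groups. Hbb-bt differed more between polysome and input (mean log2 difference 1.06) than between library 3 and libraries 1 and 2 (0.61). Over the mean of libraries 1 and 2, the adult globin sum of library 3 was 2.02 times as high in TG polysome, 1.73 times in TG input, 2.43 times in WT polysome and 1.86 times in WT input. Hba-a1 was 2.26, 2.47, 2.81 and 2.75 times as high in library 3 in these groups, the steepest of the globins. Hbb-bs was 2.06 and 2.46 times as high in the polysome groups of TG and WT, and 1.47 and 1.48 times in their input groups. Hbb-bt was 1.75, 0.888, 1.99 and 1.77 times as high, and TG input was thus its exception. Alas2, which shares no 31-base sequence with the globins, was 2.42, 2.16, 2.29 and 1.71 times as high. Library 3 was the highest in each of the 4 groups for 4 of the 5 genes, Hba-a1, Hba-a2, Hbb-bs and Alas2, against 8.22% of the 16962 genes tested. As the mean log2 difference of library 3 from libraries 1 and 2 over the groups, Hba-a1 had 1.36, Alas2 1.07, Hba-a2 1.01, Hbb-bs 0.86 and Hbb-bt 0.61, which placed them above 99.2%, 98.6%, 98.2%, 97.3% and 93.8% of genes. The median of all genes was -0.07.

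Other red-cell genes were not uniformly higher in library 3. Of the genes tested in each list, 6 of 10 of the red-cell membrane (median log2 difference 0.30), 3 of 12 red-cell enzymes and factors (-0.19) and 1 of 12 genes of heme synthesis (-0.16) were higher there. All 5 platelet genes tested (0.59) and all 10 microglial genes (0.37) were higher. Markers of the choroid plexus and ependyma, tissue that borders the striatum at the lateral ventricle, had the highest median, 1.32, with 7 of 8 genes higher. Ttr, the transthyretin of the choroid plexus, had 2.68, and Kl, Folr1 and Otx2, also choroid plexus genes, had 1.81, 1.68 and 1.39. Aqp1, which is also in the red-cell membrane list, had 1.25. The ependyma genes of the list did not share this rise. Foxj1 had 0.12, Ccdc153 0.15 and Tmem212 -0.19, above 69.0%, 71.4% and 36.1% of genes. All 12 genes of medium spiny neurons, the main neurons of the striatum, were lower (-0.61), and all 8 genes of cortical excitatory neurons were higher (0.21). Both differences are taken against a mean that includes library 2, which had the highest medium spiny sum and the lowest cortical sum in every group. In WT input the medium spiny sum was 208200, 431900 and 213900 in libraries 1, 2 and 3, and the cortical sum was 83760, 35510 and 69480. Library 3 thus lay near library 1 in the medium spiny sum of that group. The choroid plexus and ependyma sum did not follow the globins in WT library 2. It had a signal of 2256, 1097 and 33950 in TG polysome, 1715, 886.1 and 16030 in TG input, 903.8, 17150 and 17150 in WT polysome, and 646.4, 10490 and 9408 in WT input libraries 1, 2 and 3. WT library 2 was high for the choroid plexus in both fractions while its adult globin sum, 4201 in polysome and 4046 in input, was close to that of WT library 1, 4190 in polysome and 3850 in input. The part of the dissection or of residual blood in the globin signal of library 3 was not tested.

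**Figure D2:**
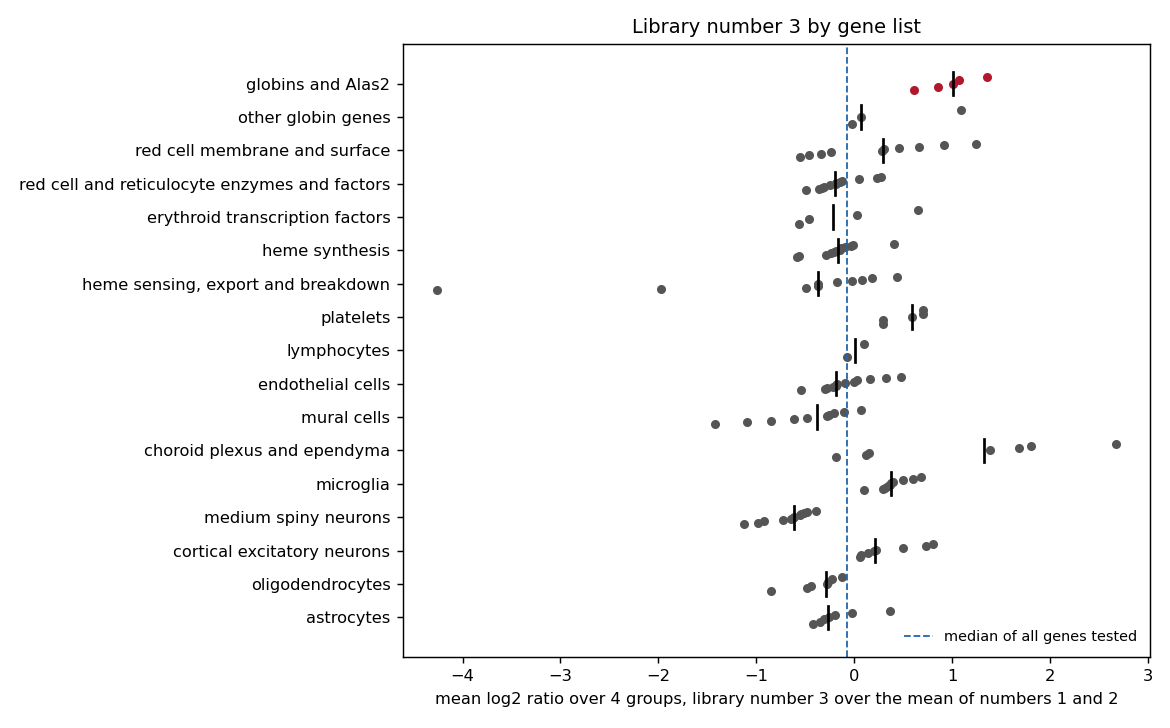
Mean log2 difference of library 3 from libraries 1 and 2 over the 4 groups (x axis), for each gene of the red-cell, blood and brain cell lists (rows), with list medians. The 5 genes lie between 0.61 and 1.36, and choroid plexus and ependyma genes are the list with the highest median, 1.32.

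Other genes of the red-cell lists ranged from near the detection limit to well detected. Tspan33, a tetraspanin of red-cell precursors, averaged 1781 ± 938 in TG polysome, 1204 ± 556 in TG input, 1886 ± 758 in WT polysome, with 1355 ± 562 in WT input libraries (SD, n = 3 each), and Epor, the erythropoietin receptor, averaged 325.8 ± 33.1, 208.0 ± 61.5, 346.0 ± 91.9 and 216.3 ± 54.8 in these groups. Gypc, a membrane protein of red cells, averaged 26.4 ± 10.3, 22.4 ± 6.12, 30.7 ± 3.59 and 25.2 ± 13.5. Slc4a1, the band 3 anion exchanger of red cells, averaged 3.13 ± 3.6 in TG polysome, 3.28 ± 0.771 in TG input, 4.59 ± 4.74 in WT polysome, with 15.5 ± 23.5 in WT input libraries (SD, n = 3 each), where 1 WT input library was at 42.7. Epb42, a protein of the red-cell membrane skeleton, was at 0 in every WT input library and averaged at most 2.26 in the other groups. Car1 (carbonic anhydrase of red cells), Trim58 and Klf1, a red-cell transcription factor, averaged at most 7.24 in any group. Among white cells, the summed signal of the 7 neutrophil genes in the table was 6.1 to 51.1 per library, and none of the 7 reached the level needed for testing. The platelet genes Pf4 and Gp9 averaged 34.99 ± 14.5 and 67.8 ± 31.7 in TG polysome, 16.5 ± 7.70 and 36.6 ± 7.88 in TG input, 31.4 ± 15.0 and 59.1 ± 6.94 in WT polysome, and 16.7 ± 7.89 and 40.9 ± 5.78 in WT input libraries (SD, n = 3 each). Ppbp, another platelet gene, averaged at most 1.70.

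Polysome libraries were next set against input libraries, which compares the signal of the 5 genes between the fractions. On the deposited scale the median difference of all genes, averaged over the genotypes, was 0.04. The values are thus relative and do not give the share of globin RNA that was on ribosomes. Hbb-bt was the gene that rose, and the other beta gene had a smaller positive difference, whereas the alpha genes had differences near 0 or below it. Averaged over the genotypes, Hbb-bt was higher in polysome than in input by 1.06 ± 0.23 on the log2 scale (SE, 2.09-fold; limma, adjusted p = 0.00365), and it was higher in 6 of 6 pairs of same-numbered libraries, by 1.53 to 3.47 times. In TG libraries the difference was 1.13 ± 0.32 (adjusted p = 0.0313), and in WT libraries 0.99 ± 0.32 (adjusted p = 0.0591). Of the 5 genes, Hbb-bt was thus the 1 called on average and in TG, and 0 were called in WT. Of all genes tested, 35.6% were called on average, 18.0% in TG and 14.0% in WT, so a count of 1 in 5 lies within what the table as a whole shows. The mean call of Hbb-bt remained when any 1 library, or any 1 number in every group, was left out (log2 0.87 to 1.20, adjusted p = 0.00267 to 0.0293). The TG call was lost without TG polysome library 3 (0.86, adjusted p = 0.131), without TG input library 2 (1.14, adjusted p = 0.0759) and without TG input library 3 (1.08, adjusted p = 0.0943), and also when any 1 number was left out of every group (0.80 to 1.39, adjusted p = 0.0630 to 0.127). The WT value passed the threshold when TG polysome library 3 was left out of the fit (0.99, adjusted p = 0.0451).

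Hbb-bs had a positive difference in 6 of 6 pairs, by 1.11 to 1.86 times, with a median of 1.28. Its mean log2 difference was 0.46 ± 0.26 (adjusted p = 0.186), with 0.52 ± 0.37 in TG (adjusted p = 0.358) and 0.41 ± 0.37 in WT (adjusted p = 0.497), and without a block it did not pass the test. Polysome exceeded input in all 6 pairs for 25.0% of genes and lay below it in all 6 for 24.1%, and the 5 genes gave 2 and 0. Summed beta-globin was higher by 0.53 ± 0.25 (adjusted p = 0.119), by 1.17 to 1.91 times in the 6 pairs. Without library 3 of every group it passed the test at a smaller size, 0.33 (adjusted p = 0.0430), with a narrower spread.

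Hba-a1 was lower in polysome in 5 of 6 pairs, with ratios of 0.672 to 1.01 and a median of 0.774. Its mean log2 difference was -0.34 ± 0.38 (adjusted p = 0.514), which did not pass the test. Hba-a2 had ratios of 0.928 to 1.14 and a mean log2 difference of 0.03 ± 0.29 (adjusted p = 0.940). Summed alpha-globin differed by -0.13 ± 0.32 (adjusted p = 0.782), with ratios of 0.816 to 1.07. Alas2 had the widest ratios, 0.889 to 2.64, and a mean log2 difference of 0.44 ± 0.37 (adjusted p = 0.390). The sum of the 4 adult globins was higher in polysome in 6 of 6 pairs, by 1.04 to 1.39 times, with a mean log2 difference of 0.25 ± 0.28 (adjusted p = 0.522).

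Library number accounted for much of the spread, and pairing the libraries by number (a replicate block in limma) changed several of these calls. With the block, Hbb-bt (adjusted p = 0.00054) and Hbb-bs (SE 0.12, adjusted p = 0.0119) rose on average over the genotypes and Hba-a1 fell (SE 0.10, adjusted p = 0.0170). These were 3 of the 5 genes, where 49.5% of all genes were called. Summed beta-globin (adjusted p = 0.00516) and summed adult globin (adjusted p = 0.0444) also rose, and summed alpha-globin (adjusted p = 0.229), Hba-a2 (adjusted p = 0.766) and Alas2 (adjusted p = 0.102) did not pass. In TG, Hbb-bt (adjusted p = 0.00528) and Hbb-bs (adjusted p = 0.0465) were called with the block, against 33.2% of all genes. In WT, Hbb-bt was called (adjusted p = 0.0102), against 29.8% of all genes, and Hbb-bs was not (adjusted p = 0.106).

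The scale on which polysome and input are set side by side bears on the direction of the smaller differences. With libraries scaled to equal sums of RNA not encoded by mitochondrial DNA, the median of all genes moved to 0.32, against 0.04 as deposited, and the summed alpha-globin difference moved to 0.15. Hbb-bs (0.75, adjusted p = 0.0393, limma) and summed beta-globin (0.82, adjusted p = 0.0231) were called on that scale, and in WT so was Hbb-bt (1.27, adjusted p = 0.0210). Relative to the median of all genes, Hbb-bt stood at 1.03 with either scaling, Hbb-bs at 0.42, Alas2 at 0.40, summed alpha-globin at -0.17 and Hba-a1 at -0.38.

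**Figure D3:**
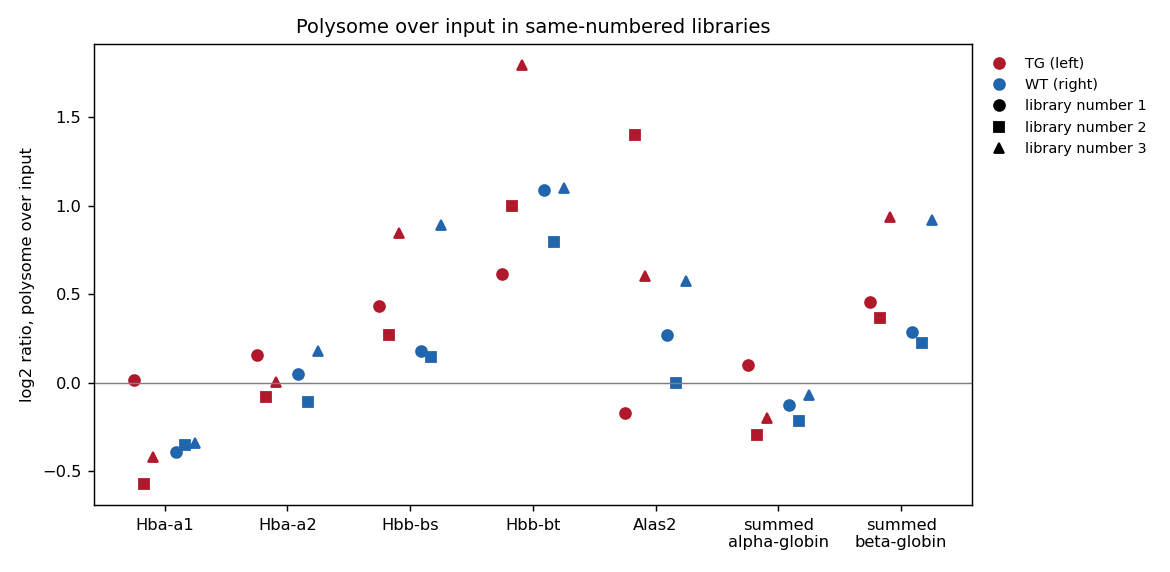
Log2 ratio of polysome to input in the 6 pairs of same-numbered libraries (y axis) for the 5 genes and the alpha and beta sums, by genotype and library number. All 6 ratios lie above 0 for Hbb-bt, Hbb-bs and summed beta-globin, and 5 of 6 lie below 0 for Hba-a1 and summed alpha-globin.

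Ratios between the globins do not change when all genes of a library are scaled by a single factor. Whether the deposited normalization also used factors specific to genes is not stated. The ratio of alpha to beta signal was 0.551, 0.529 and 0.542 in TG polysome libraries 1, 2 and 3, against 0.705, 0.837 and 1.19 in TG input libraries. It was 0.572, 0.533 and 0.579 in WT polysome libraries, against 0.758, 0.723 and 1.15 in WT input libraries. Every polysome library thus lay below every input library, and the polysome libraries spanned a narrow range while the input libraries differed from each other, library 3 being the highest. How often ratios of other gene pairs separate the fractions was not tested. The means were 0.540 ± 0.0109 in TG polysome and 0.910 ± 0.250 in TG input, and 0.561 ± 0.0245 in WT polysome and 0.876 ± 0.235 in WT input libraries (SD, n = 3 each). The mean log2 difference of polysome from input was -0.66, with pairs between -1.13 and -0.36. An exact permutation test within genotype gave a two-sided p = 0.005, the smallest that 400 arrangements allow (adjusted p = 0.015 over 6 ratio tests). With the libraries paired by number, exact sign flips of the 6 pairs gave p = 0.03125, the smallest that 64 arrangements allow, and an adjusted p = 0.0625, which did not pass. The genotype ratios in the same adjustment had p = 0.8125 to 0.9688 by exact sign flips. No lower adjusted p could then be reached, so the paired test could not pass.

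Within the beta pair, Hbb-bs took a smaller share in polysome libraries. Its share of beta-globin signal was 85.8% ± 2.33 in TG polysome and 90.2% ± 2.39 in TG input, and 86.2% ± 1.48 in WT polysome and 90.4% ± 1.05 in WT input libraries (SD, n = 3 each). The log2 ratio of Hbb-bs to Hbb-bt was lower in polysome by a mean of -0.60, in 6 of 6 pairs (exact permutation test, two-sided p = 0.005, adjusted p = 0.015). Paired by number it did not pass after adjustment (exact sign flips, p = 0.03125, adjusted p = 0.0625), and here too no lower adjusted p could be reached. Within the alpha pair, Hba-a1 took 40.6% ± 2.67 in TG polysome and 46.6% ± 4.87 in TG input, and 40.5% ± 4.02 in WT polysome and 47.3% ± 4.80 in WT input libraries. This difference was in the same direction in 6 of 6 pairs, with a mean log2 ratio of -0.38 (exact permutation test, two-sided p = 0.025, adjusted p = 0.05, which is not under the threshold, and adjusted p = 0.0625 by exact sign flips of pairs). Both shares rest on dividing reads between near-identical copies. Of the 31-base sequences, 75.5% of Hba-a1 and 92.6% of Hba-a2, but 54.4% of Hbb-bs and 59.4% of Hbb-bt, also occur in another gene. How many reads match both copies was not measured, and whether the same index was used for polysome and input libraries is not given in the sources used here.

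**Figure D4:**
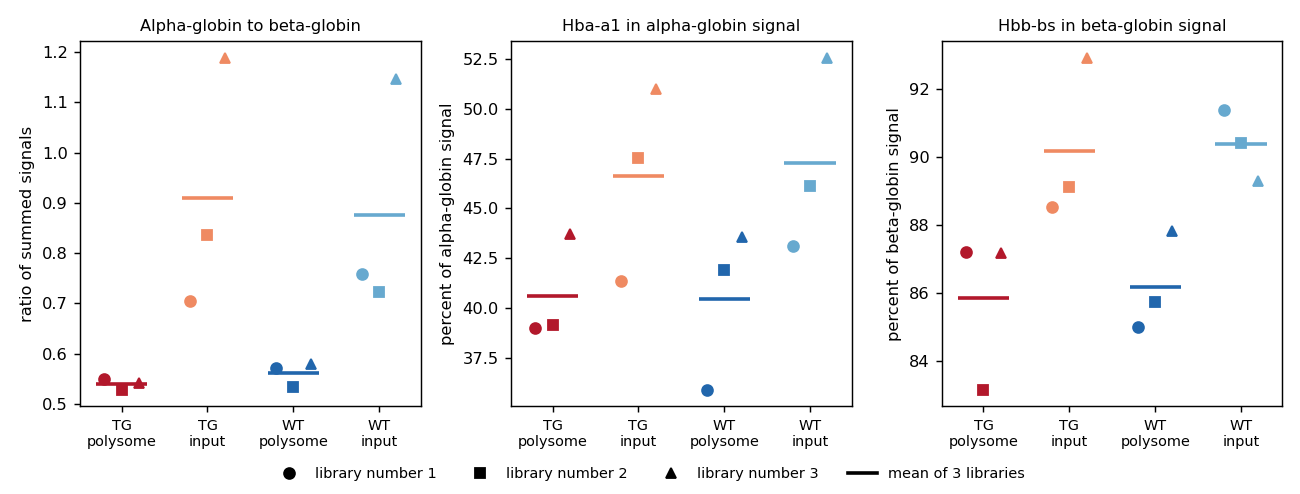
Ratio of summed alpha-globin to summed beta-globin signal (left), percent of alpha-globin signal assigned to Hba-a1 (middle) and percent of beta-globin signal assigned to Hbb-bs (right) per library, with group means as lines; the y axes do not start at 0. In the left panel the 6 polysome libraries lie between 0.529 and 0.579 and the 6 input libraries between 0.705 and 1.19.

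Genes of the surrounding pathways were counted in the same comparison, in which 35.6% of all genes tested were called (2903 rose and 3127 fell of 16962). Of the 12 genes of heme synthesis, 7 rose and 1 fell on average over the genotypes (median log2 difference 0.44, against 0.04 for all genes; limma, adjusted p under the threshold for each). Among those that rose were Tmem14c, Urod, Slc25a38, Abcb10, Ppox and Uros. Tmem14c, a carrier of heme precursors in the mitochondrial inner membrane, rose by 1.06 ± 0.11 (adjusted p = 5.74e-05), with a mean signal of 3463 ± 487 in TG polysome and 1611 ± 242 in TG input libraries, and 3279 ± 77.8 in WT polysome and 1635 ± 163 in WT input libraries (SD, n = 3 each). Alas1, the form of the enzyme outside red cells, fell by 1.02 ± 0.18 (adjusted p = 0.00117), with 1445 ± 376 in TG polysome and 2780 ± 461 in TG input libraries, and 1425 ± 415 in WT polysome and 2931 ± 453 in WT input libraries. Alas1 was thus called in the opposite direction to the positive, uncalled difference of Alas2. Heme synthesis runs in all cells with mitochondria, and the cell type behind these signals was not tested.

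Among the genes that sense, export or break down heme, among those of the red-cell membrane and among red-cell enzymes and factors, the share called was below the 35.6% of all genes. Of 11 genes that sense, export or break down heme, 3 rose and 0 fell (median 0.37). Flvcr1, a heme exporter, rose by 0.49 ± 0.16 (limma, adjusted p = 0.0346), and Slc48a1, a heme transporter of lysosomes, and Hmox2, a heme oxygenase, rose with it. Of 10 red-cell membrane genes tested, 0 rose and 2 fell (median -0.18), namely Ank1 (ankyrin, -0.71 ± 0.17, adjusted p = 0.00677) and Add2 (beta-adducin), both also expressed in neurons. Of 12 red-cell enzymes and factors, 3 rose and 1 fell (median 0.17). Prdx2, a peroxiredoxin abundant in red cells and neurons, rose by 0.59 ± 0.11 (adjusted p = 0.00134), as did Mkrn1, and Cat (catalase) fell by 0.82 ± 0.16 (adjusted p = 0.00170). Of 4 erythroid transcription factor and receptor genes tested, Tal1 (0.73 ± 0.26, adjusted p = 0.0478) and Epor rose. Of 3 other globin genes tested, Hbq1a, a theta-globin gene, rose by 1.83 ± 0.66 (adjusted p = 0.0463) at a mean signal of 9.91 in TG polysome and 2.88 in TG input, and 12.02 in WT polysome and 2.90 in WT input libraries, a level of very few reads in input. Ngb, the globin of neurons, had 0.94 ± 0.58 (adjusted p = 0.235), and was called with the block (adjusted p = 0.00183). With the block, where 49.5% of all genes were called, 5 genes of heme handling rose and 0 fell, 1 red-cell membrane gene rose and 4 fell, and all 3 other globin genes rose.

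Markers of blood and vessel cells were counted beside the same 35.6% of all genes called. None of 5 platelet genes (median 0.61) and none of 2 lymphocyte genes passed the test, and Gp9, a platelet glycoprotein, came nearest (0.65 ± 0.25, limma adjusted p = 0.0572). With the block, 2 of the 5 platelet genes rose, Pf4 (adjusted p = 0.00898) and Gp9 (adjusted p = 0.0158). Of 13 endothelial genes, 2 rose and 1 fell (median 0.20), with Cldn5, the claudin of the blood-brain barrier, at 0.95 ± 0.21 (adjusted p = 0.00372) and Abcb1a, a transporter of that barrier, at -0.53 ± 0.18 (adjusted p = 0.0329). Of 10 mural cell genes, 0 rose and 2 fell, Abcc9 (-0.79 ± 0.20, adjusted p = 0.00881) and Cspg4. Of 10 microglial genes, 5 rose and 0 fell (median 0.47), with C1qa, a complement gene, at 0.73 ± 0.17 (adjusted p = 0.00551). None of 8 choroid plexus and ependyma genes passed the test (median 0.37), and with the block Ttr rose (0.87, adjusted p = 0.000257). Also with the block, 2 endothelial genes rose and 3 fell, and 3 mural cell genes rose and 3 fell, where 49.5% of all genes were called. The part of these cells in the polysome differences of the globins was not tested.

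TG libraries were then compared with WT libraries within each fraction. The 5 genes had small positive differences that did not pass the test in either fraction. In polysome libraries the adult globin sum was 5659, 5149 and 10900 in TG, against 4190, 4201 and 10200 in WT. In input libraries it was 4536, 4793 and 8084 in TG, against 3850, 4046 and 7343 in WT. TG exceeded the WT library of the same number in 6 of 6 pairs, by 1.07 to 1.35 times, a smaller ratio than that between library 3 and libraries 1 and 2 of 1 group. In polysome libraries the log2 differences were 0.25 ± 0.46 for Hba-a1, 0.24 ± 0.38 for Hba-a2, 0.29 ± 0.41 for Hbb-bs, 0.32 ± 0.33 for Hbb-bt and 0.35 ± 0.46 for Alas2 (SE). In input libraries they were 0.21 ± 0.49 for Hba-a1, 0.25 ± 0.35 for Hba-a2, 0.18 ± 0.23 for Hbb-bs, 0.18 ± 0.27 for Hbb-bt and 0.03 ± 0.52 for Alas2. Every adjusted p was 1.00 (limma), with and without the block.

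TG was the higher library in all 3 polysome pairs for 5 of the 5 genes, against 11.0% of all genes tested. In input it was so for 3 of the 5, Hba-a1, Hba-a2 and Hbb-bs, against 9.6% of all genes. The levels of the 5 genes were correlated over the libraries, so they do not count as 5 separate observations. Hbb-bt had TG over WT ratios of 0.714 to 1.62 and was lower in TG input library 3, and Alas2 had ratios of 0.588 to 1.55 and was lower in TG input library 2. No gene of the table was called between genotypes in polysome (0.0% called) or input (0.0% called), with 53 and 80 genes at an unadjusted p under 0.05. With the block, 1 gene was called in polysome, which is 0.00613%, and it was none of the 5. Blocked, unadjusted p-values in polysome were 0.0826 for Hba-a1, 0.0711 for Hba-a2, 0.0312 for Hbb-bs, 0.0311 for Hbb-bt and 0.112 for Alas2, from limma. In input the blocked limma p-values were 0.107, 0.0464, 0.104, 0.452 and 0.937 in the same order of genes. Over all genes tested with the block, 438 of 16312 in polysome and 445 of 16341 in input had such a p under 0.05.

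**Figure D5:**
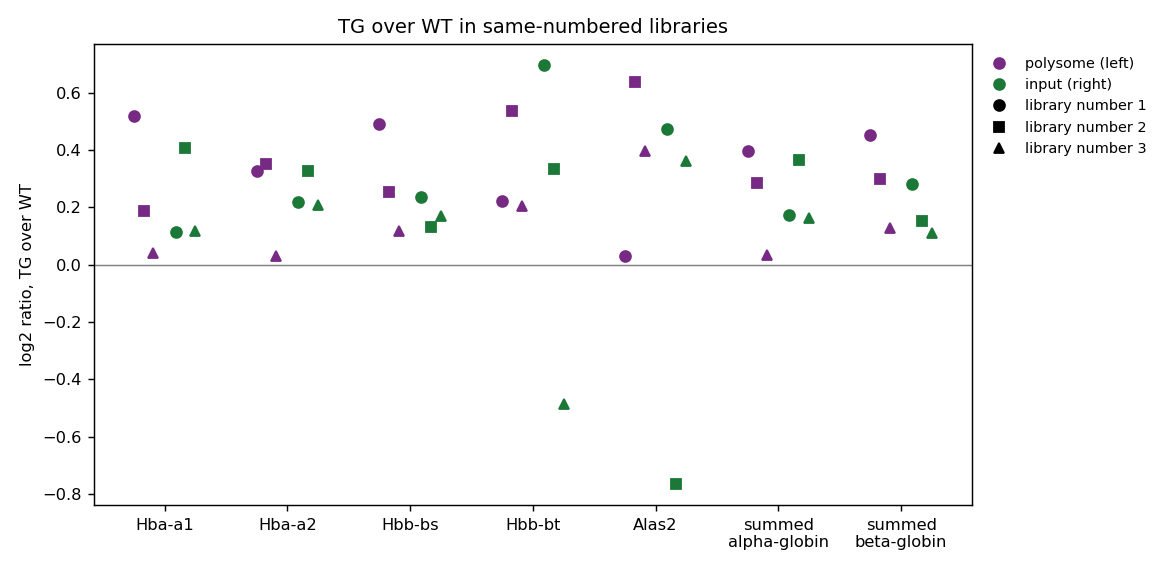
Log2 ratio of TG to WT in same-numbered libraries (y axis) for the 5 genes and the alpha and beta sums, with polysome pairs left and input pairs right for each gene. All polysome ratios lie above 0, and 2 input ratios, Hbb-bt in library 3 and Alas2 in library 2, lie below it.

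None of the surrounding lists had a gene called between genotypes. The median log2 difference of TG from WT was 0.29 for the 5 genes in polysome and 0.18 in input, against 0.01 and -0.01 for all genes. Heme synthesis had a median of 0.03 in polysome, with 9 of 12 genes positive, and -0.02 in input, with 5 of 12 positive. Platelet genes had 0.09 in polysome and -0.05 in input, and endothelial genes -0.06 and -0.07. Genes of medium spiny neurons were positive in 12 of 12 in both fractions, with medians of 0.21 in polysome and 0.19 in input. Oligodendrocyte genes were positive in 6 of 7 in polysome (0.08) and 7 of 7 in input (0.11). Choroid plexus and ependyma genes had -0.49 in polysome and -0.45 in input, and cortical excitatory neuron genes -0.13 and -0.17. The part of these cell types in the genotype differences of the globins was not tested. The genes with the smallest p per list were Slc25a38 for heme synthesis (-0.10 ± 0.15), Slc48a1 for heme handling (-0.12 ± 0.18), Prdx2 for red-cell enzymes (0.19 ± 0.17), Aqp1 for the red-cell membrane (-0.73 ± 0.80), Lmo2 for erythroid factors (0.30 ± 0.30) and Gp1bb for platelets (0.73 ± 0.55) in polysome libraries. In input libraries they were Alad (0.09 ± 0.16), Hmox1 (-0.46 ± 0.27), Ube2l6 (-0.33 ± 0.29), Ermap (0.48 ± 0.37), Tal1 (0.41 ± 0.46) and Gp9 (-0.17 ± 0.34), each at an adjusted p of 1.00 (limma).

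Whether the polysome to input difference itself depended on genotype was tested as an interaction. The difference in TG minus that in WT was 0.03 ± 0.75 for Hba-a1, -0.01 ± 0.57 for Hba-a2, 0.11 ± 0.52 for Hbb-bs, 0.14 ± 0.46 for Hbb-bt and 0.32 ± 0.75 for Alas2 (log2, SE). Every adjusted p was 1.00 (limma), and 0.0% of the genes of the table were called, with 94 at an unadjusted p under 0.05. The call of Hbb-bt in TG and not in WT is therefore not shown to be a difference between the genotypes. The globin ratios also differed little by genotype, with mean log2 differences of TG from WT of -0.001 for alpha to beta signal (exact permutation p = 0.995), -0.01 for Hba-a1 to Hba-a2 (exact permutation p = 0.935) and -0.02 for Hbb-bs to Hbb-bt (exact permutation p = 0.880). Without the block, the standard errors of the interaction leave room for differences of the size seen between the fractions. With the block they were 0.20 for Hba-a1, 0.17 for Hba-a2, 0.25 for Hbb-bs, 0.30 for Hbb-bt and 0.41 for Alas2. For Hbb-bt the blocked fit thus leaves less room for a difference as large as its 1.06 between the fractions.

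Over the 12 libraries, the alpha copies followed each other most closely and Hbb-bt followed them least. Pearson's r of log2 signal was 0.94 between Hba-a1 and Hba-a2, 0.82 between Hbb-bs and Hbb-bt, 0.86 between Hba-a2 and Hbb-bs, and 0.25 between Hba-a1 and Hbb-bt. Alas2 had 0.84 with Hbb-bs, 0.80 with Hba-a2, 0.64 with Hbb-bt and 0.61 with Hba-a1. These values are descriptions over libraries that share number and fraction. Among the 10 genes whose log2 signal was most like the mean of the 4 adult globins were Cabp7, Lgi2, Lats2, Lrp3, Gpr26, Neurl1b, Mgat3, Pak6 and Nkain3, with r between 0.94 and 0.98 over the 12 libraries among 14308 genes compared. Cabp7, a calcium-binding protein, had 0.98 and Lgi2, a secreted protein of neurons, also 0.98. Alas2 stood at place 228 with 0.83, and Ttr had 0.65. None of the 10 is in a red-cell or blood list.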

How the data were processed

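The deposited table holds the authors' signal per gene, a normalized estimated count that is not whole. Per the submitters' processing notes, Salmon 1.1.0, R 3.6.2, DESeq2 1.26.0 and the build GRCm38 were used, and per the labels' protocols libraries came from a stranded total RNA kit. Neither the annotation nor the normalization model is stated there. Whole reads could not be recovered: of values worth at most 20 reads, 32.6% to 46.0% per library came within 0.1 of a whole read. The estimated depth was 76.7 to 102.7 M reads (M, 1000000) per polysome and 62.0 to 85.4 M per input library.

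Here limma 3.58.1 in R 4.3.3 was fitted to log2(value + 1) with a variance trend, for genes with at least 3 fitted libraries at 10 or more (16962 for all 12 libraries, 16341 for input, 16312 for polysome). Fold changes on this scale understate those of low genes. P-values were adjusted by Benjamini-Hochberg over all genes tested, with a threshold of 0.05. Polysome against input and the interaction came from 1 fit of 12 libraries, and genotype from 6 libraries per fraction. Sums of globins were added as rows. Ratios were tested by exact permutation. Symbols (21465 matched), exons and shared 31-base sequences came from GENCODE M21 and start regions from RefSeq. The limma fits of polysome against input in TG and of both genotype comparisons were tested on simulated data. The other comparisons, the sums and the ratio tests were not.

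Deviations from group means correlated at 0.242 to 0.545 in the 18 same-numbered pairs of libraries and at -0.413 to -0.001 in the other 36, so the numbers were taken to pair the libraries, although no label explains them. Scaling, filters, pseudocounts, the block and left-out libraries were tried as alternatives.

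The genes and lists were chosen with earlier results of these data known. Named besides the 5 genes are, per list and comparison, the called genes with the largest rise and fall or else the smallest p (between genotypes for red-cell, heme and platelet lists only), the other called genes of the red-cell and heme lists, and the 10 genes most like the globins. Some genes that this rule covers are not reported here. Library 3, choroid plexus genes, Tspan33, Gypc and genes near 0 were singled out after their values were seen.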

Additional observations from a re-analysis of the deposited data

How the results depend on the processing

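The count tests could not be run, and depth limits Alas2 and Hbq1a most, since few reads lie behind their input values. TMM scaling, filters at 0 and 50, pseudocounts of 0.5 and 5 and no variance trend kept the direction and the call of the 5 genes and the sums in all 6 comparisons, as did a fit of all 12 libraries in both genotype comparisons. Of these settings, the pseudocounts were the ones run for the ratios, and they kept them too. Scaling to RNA not encoded by mitochondrial DNA turned the summed alpha-globin difference of polysome from input to 0.163 in TG, 0.141 in WT and 0.152 on average, and the Hba-a2 interaction to 0.00114. With it 3919 genes and 1 of the 5 were called in WT, and on average 2 of the 5 and summed beta-globin (0.815). Fitting only the TG groups called 1700 genes in place of 3058.

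With the replicate block, that is pairing by number, 5638 genes, 2 of the 5 and summed beta-globin (0.587) were called in TG, 5052 genes and 1 of the 5 in WT, 3 of the 5 with summed beta-globin (0.53) and summed adult globin (0.251) on average, and 1 gene between genotypes in polysome. No other call on the 5 genes or the sums changed with the block. Sign flips of the 6 pairs gave the alpha to beta, Hba-a1 to Hba-a2 and Hbb-bs to Hbb-bt ratios an exact p of 0.03125 each, the smallest that 64 arrangements allow, and an adjusted p of 0.0625, which did not pass. Beside the large p-values of the genotype ratios, no lower adjusted p could be reached.

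Leaving out each library in turn, or each number from all groups (added after seeing the data), gave these ranges. For polysome against input in TG they were 332 to 3262 genes, 0 to 1 of the 5 called, and log2 differences of -0.718 to 0.115 for Hba-a1, -0.275 to 0.339 for Hba-a2, -0.469 to 0.242 for summed alpha-globin and -0.0533 to 0.549 for summed adult globin. In WT they were 139 to 2566 genes, 0 to 1 of the 5, -0.856 to 0.127 for Hba-a1, -0.363 to 0.375 for Hba-a2, -0.0269 to 0.635 for Hbb-bs, -0.121 to 0.593 for Alas2, -0.577 to 0.272 for summed alpha-globin and -0.21 to 0.516 for summed adult globin. On average they were 3349 to 6078 genes, -0.168 to 0.201 for Hba-a2, -0.354 to 0.0712 for summed alpha-globin and 0.321 to 0.648 for summed beta-globin.

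For TG against WT in polysome, 0 to 1 genes were called, with -0.145 to 0.745 for Hba-a1, -0.0645 to 0.641 for Hba-a2, -0.061 to 0.72 for Hbb-bs, -0.0717 to 0.748 for Alas2, -0.0998 to 0.681 for summed alpha-globin, -0.0437 to 0.713 for summed beta-globin and -0.0638 to 0.702 for summed adult globin. In input, 0 to 1 genes were called, with -0.226 to 0.7 for Hba-a1, -0.0612 to 0.585 for Hba-a2, -0.00608 to 0.367 for Hbb-bs, -0.0756 to 0.514 for Hbb-bt, -0.395 to 0.587 for Alas2, -0.139 to 0.642 for summed alpha-globin and -0.0581 to 0.505 for summed adult globin. For the interaction, 0 to 2 genes were called, with -0.452 to 0.532 for Hba-a1, -0.349 to 0.39 for Hba-a2, -0.239 to 0.542 for Hbb-bs, -0.135 to 0.471 for Hbb-bt, -0.238 to 0.744 for Alas2, -0.402 to 0.448 for summed alpha-globin, -0.225 to 0.531 for summed beta-globin and -0.27 to 0.495 for summed adult globin.

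Without a library number, the ratios of polysome against input were -0.804 to -0.466 for alpha to beta, -0.42 to -0.328 for Hba-a1 to Hba-a2 and -0.632 to -0.559 for Hbb-bs to Hbb-bt. They no longer passed because 36 arrangements allow no p below 0.0556. For TG against WT the same ratios were -0.051 to 0.039, -0.042 to 0.001 and -0.169 to 0.094. The cause of the other changes was not tested.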

Other observations

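Hp (haptoglobin) and Hpx (hemopexin), plasma proteins that bind free hemoglobin and free heme, went the other way from the globins in library 3, and were singled out after their values were seen. Averaged over the 4 groups, the log2 difference of library 3 from libraries 1 and 2 was -4.26 for Hp, which was above 0.1% of the genes tested, and -1.97 for Hpx, which was above 0.8%. The signal of Hp ranged from 9.46 to 63.6 in TG polysome, 1.39 to 125 in TG input, 1.35 to 163 in WT polysome and 2.85 to 90.1 in WT input libraries. That of Hpx ranged from 32.4 to 90.7 in TG polysome, 20.5 to 86.9 in TG input, 18.4 to 316.8 in WT polysome and 14.1 to 70.7 in WT input libraries.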
